A study of Macaca fascicularis and Mus musculus with 492 samples.

Results

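The 10 enzymes of glucose breakdown followed here through cynomolgus monkey and mouse embryos were the hexokinases HK1 and HK2, glucose-6-phosphate isomerase GPI, platelet-type phosphofructokinase PFKP, the aldolases ALDOA and ALDOC, triosephosphate isomerase TPI1, muscle-type pyruvate kinase PKM, and the lactate dehydrogenase subunits LDHA and LDHB. They were taken by gene name from the 28797 monkey genes with values and the 26219 mouse genes, and all 10 were found in both species. SC3-seq, a single-cell RNA-seq method that reads the 3′ ends of transcripts, gave a value in RPM (reads scaled to a fixed total per cell) for each gene in 421 monkey and 71 mouse cells.

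The monkey cells came from dissociated whole embryos at E06 (43 cells), E07 (35), E08 (95) and E09 (20), and from hand-dissected embryonic fragments of implanted embryos at E13 (46), E14 (62), E16 (36) and E17 (53). Monkey embryonic stem cells (ESC) were the lines CMK6 and CMK9 grown on mouse embryonic feeder cells in serum-replacement medium with LIF and bFGF (14 and 8 cells), and CMK6 grown without feeders (9 cells). The mouse cells, from C57BL/6 animals, were E5.5 cells (25) and E6.5 cells (24), that day sampled as the proximal epiblast and the whole visceral endoderm. The mouse cultures were the ESC line BVSC R8 in 2i and LIF (10 cells) and epiblast-like cells (EpiLC) induced from it over 2 days with activin A, bFGF and serum replacement (12 cells). No embryo or animal is named in the labels, so the replicates compared below are embryonic days or cultures, and p-values measure only the spread between them.

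Cells took the lineage names used here from clusters made without the listed genes of glucose metabolism, so the rows of these enzymes did not form the classes. Unnamed rows that follow LDHA and LDHB, described below, were not taken out. The monkey classes were trophectoderm-like, hypoblast-like, extraembryonic-mesenchyme-like, gastrulating-like and epiblast-like, each named from its markers, and 32 cells, 31 of them from E06, stayed unnamed. In epiblast-like cells 7 of 8 epiblast markers were above 10 RPM on every day and L1TD1 was near 0; in hypoblast-like cells all 10 hypoblast and endoderm markers were. Trophectoderm-like cells numbered 19, 34 and 8 at E07, E08 and E09, hypoblast-like cells 10, 37 and 7, and epiblast-like cells 5, 24 and 5. Epiblast-like cells then numbered 24, 25, 22 and 35 at E13, E14, E16 and E17. Extraembryonic-mesenchyme-like cells numbered 16 at E13 and 14 at E14, and gastrulating-like cells 6, 14, 10 and 18 from E13 to E17. Values for a class on a day, or for a culture, are means over cells of log2(RPM + 1), called levels below, and at least 5 cells were required, which left 25 such means. Depth was 166753 to 4491535 reads per monkey cell with a median of 1879413, and the shallowest class by median was the gastrulating-like one at E17 with 805680 reads.

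Glycolysis splits glucose into pyruvate in the cytosol, and lactate dehydrogenase interconverts pyruvate and lactate. Several steps are served by paralogous enzymes that tissues use in different proportions: HK1 and HK2 both trap glucose by phosphorylating it, ALDOA and ALDOC both split fructose 1,6-bisphosphate, and LDHA and LDHB form mixed tetramers in which LDHA is classically linked to lactate production and LDHB to lactate use. Around implantation, mammalian embryos are known to shift from pyruvate towards glucose as a fuel, and primed pluripotent cells are known for strong glycolysis.

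The identity of some monkey rows limits what can be said about levels. ALDOA, ALDOC, PKM and LDHB are unnamed LOC rows in the deposited table and were matched by gene ID to the RefSeq names of the T2T-MFA8v1.1 assembly, which is not the build of the table. The row that the table itself names PKM had a mean of 16.1 RPM and lies on a locus of 1918 bases that RefSeq calls LOC102144419, while the gene RefSeq names PKM, with a locus of 32964 bases, had 456 RPM and is called PKM below. The row named LDHA had a mean of 19.2 RPM. RefSeq calls it LOC102118498, a locus of 13183 bases between LDHC and GTF2H1. RefSeq gives the name LDHA to another, 1675-base locus, which has no row with values. An unnamed row, LOC102127771, followed the LDHA row with r = 0.97 over the 25 means and 0.76 over cells. Whether it holds LDHA reads was not tested. LDHB had 595 RPM, but 3 unnamed rows followed it over the 421 cells with r of 0.97 to 0.98 and had 421 to 456 RPM, so how reads were divided among near-identical copies is uncertain and the summed level of LDHB may be higher than its row. SC3-seq reads 3′ ends, and how well each row covers the 3′ end of its gene was not tested. With the uncertain division of reads among copies, shares of a paralog pair's RPM below are for comparing classes with each other. They do not rank the paralogs within a cell.

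Of the 10 enzymes, counts past an adjusted p of 0.05 (limma over 11774 genes, Benjamini-Hochberg) differed by lineage. In trophectoderm-like cells at E07 to E09, 3 were higher (ALDOA, PKM and LDHA) and 1 lower (LDHB) than in epiblast-like cells of the same days, against 9.78% of all tested genes called higher and 12.6% lower. In hypoblast-like cells 3 were higher (TPI1, PKM and LDHA) and 3 lower (HK1, GPI and LDHB), against 10.9% and 13.1%. In extraembryonic-mesenchyme-like cells at E13 and E14 none was higher and 4 were lower (HK2, PFKP, ALDOC and LDHB), against 11.8% and 14.5%; none was higher at an unadjusted p under 0.05 in limma or with edgeR or DESeq2 either.

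In gastrulating-like cells at E16 and E17 none of the 10 passed limma's threshold, where 1.96% of genes were higher and 3.08% lower. At an unadjusted p under 0.05, 1 of the 10 was lower (LDHB); edgeR called none and DESeq2 called LDHB. In epiblast-like cells of E13 to E17 against E07 to E09, 5 were higher (PFKP, ALDOA, ALDOC, TPI1 and PKM) and 1 lower (LDHB), against 14% and 23%. In the ESC cultures against epiblast-like cells of E13 to E17, none was higher, also at an unadjusted p under 0.05 and with edgeR or DESeq2, and 3 were lower (HK2, PKM and LDHA), against 9.65% and 2.31%. The background shares include the genes that formed the clusters, and the lineage comparisons share the epiblast-like days. In the comparisons that use E13 to E17, the model held E13 and E14 as a group and E16 and E17 as another, and averaged them. The gap between these groups of later days is thus not part of those SEs and p-values. The median difference of the 10 was 0.00, -0.36, -0.48, -0.14, 0.69 and -0.24 (log2) over these 6 comparisons in the order given, while the median of all tested genes was -0.12, -0.12, -0.13, -0.13, -0.23 and 0.26.

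**Figure D1:**
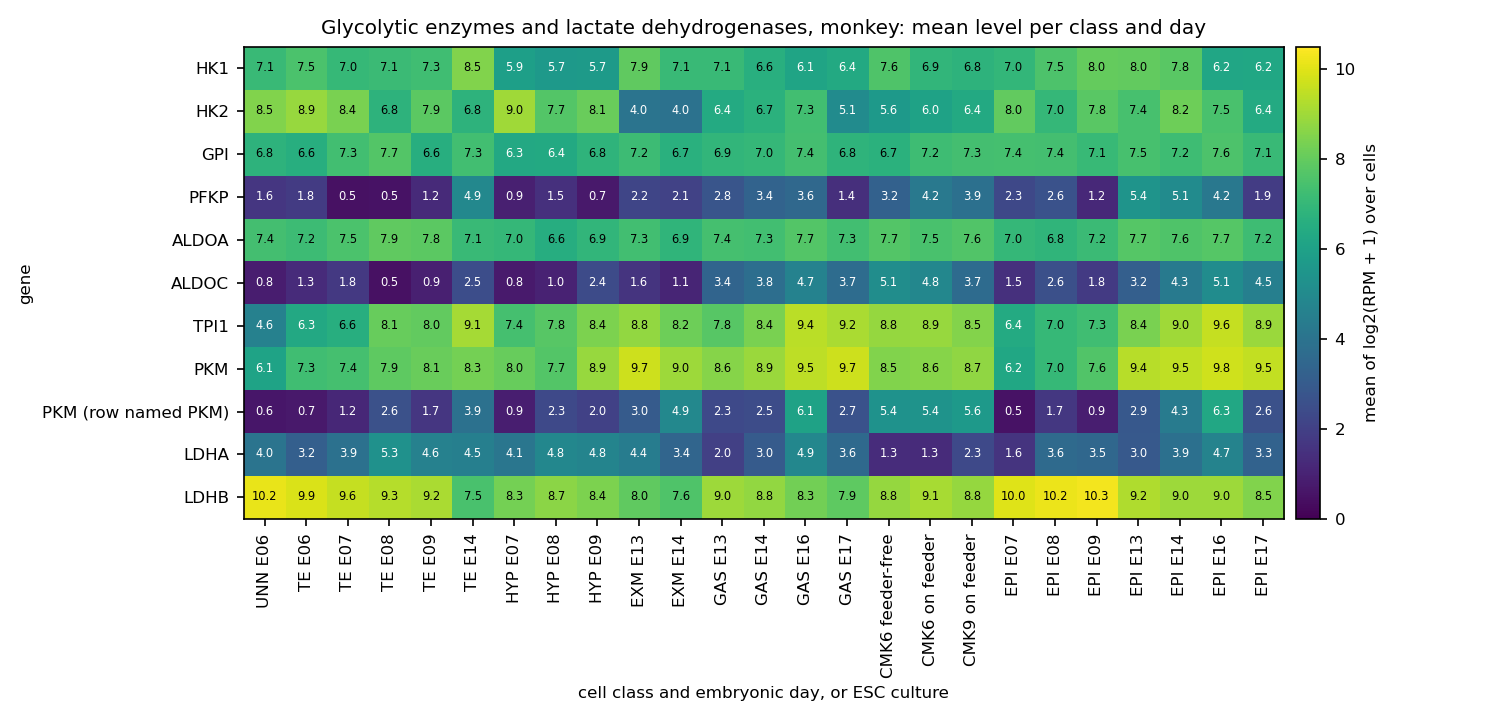
Mean level, log2(RPM + 1), of the 10 enzymes and of the row the table names PKM (rows) in each monkey class and day or ESC culture (columns). LDHB is high throughout, HK2 drops to about 4 in the extraembryonic-mesenchyme-like columns, and TPI1 and PKM are brightest in the later columns.

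**Figure D2:**
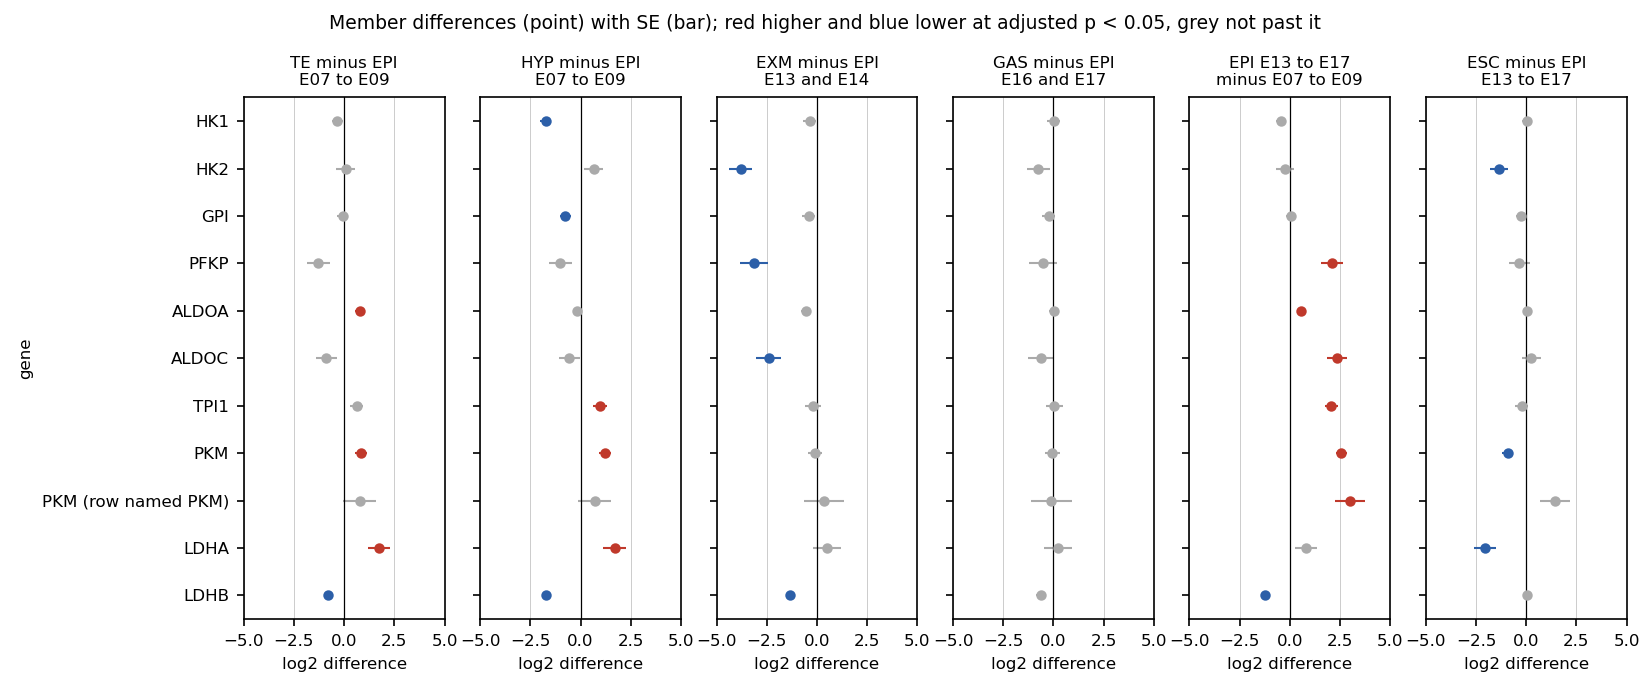
Log2 differences (points) with standard errors (bars) of each enzyme in the 6 monkey comparisons. Points coloured red are higher and points coloured blue lower at an adjusted p below 0.05. LDHB lies left of 0 in the 3 extraembryonic lineages, the gastrulating-like cells and the later epiblast-like cells.

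HK1 was low in the hypoblast-like cells and HK2 in the mesenchyme-like cells. HK1, the widely expressed hexokinase bound to mitochondria, had levels of 5.92, 5.68 and 5.74 in hypoblast-like cells at E07, E08 and E09, against 6.96, 7.55 and 8.01 in epiblast-like cells of those days. Every hypoblast-like day was below every epiblast-like day. In linear terms the means were 71.6, 68.6 and 60.7 RPM in hypoblast-like cells, against 145, 201 and 277 RPM in epiblast-like cells. HK1 was 3.31-fold lower in hypoblast-like cells (log2 difference -1.73 ± 0.27 (SE), adjusted p = 4.42e-05, limma), and it passed the threshold in all 17 alternatives tested.

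HK2, an inducible hexokinase of growing and insulin-sensitive tissues, stood at 9.0, 7.67 and 8.11 in hypoblast-like cells, against 7.97, 7.01 and 7.81 in epiblast-like cells. The hypoblast-like day was the higher one on each of the 3 days, but the ranges overlapped and the difference of 0.66 did not pass (adjusted p = 0.36, limma); with the day as a block the adjusted p was 0.0336. In mean RPM, HK1 made up 11.4%, 20.6% and 14.9% of HK1 plus HK2 in hypoblast-like cells, against 35.6%, 57% and 49.7% in epiblast-like cells. The mean log2 ratio of HK1 over HK2 was -2.48 in hypoblast-like cells and -0.09 in epiblast-like cells, with no overlap between days and an exact permutation p of 0.1, the smallest that 3 days against 3 allow. Both classes contributed cells from the same title codes, a prefix in the sample titles whose meaning the labels do not give, and within the 3 shared day-and-code sets HK1 was lower in hypoblast-like cells in 3 of 3, by log2 -2.27 to -0.71.

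In extraembryonic-mesenchyme-like cells it was HK2 that was low. Its level was 4.04 at E13 and 3.96 at E14 in these cells, against 7.43 and 8.18 in epiblast-like cells, with means of 43.6 and 32.1 RPM in mesenchyme-like cells against 198 and 351 RPM in epiblast-like cells. The 2 groups of days were far apart, although single mesenchyme-like cells ranged from 0 to 180 RPM at E13 and from 0 to 104 RPM at E14, with 2 of 16 and 1 of 14 cells at 0. HK2 was 14-fold lower (log2 difference -3.81 ± 0.58, adjusted p = 3e-05, limma), and the difference ran from -4.3 to -2.63 over 15 alternatives, all past the threshold. HK1 did not follow it, at 7.94 and 7.13 in mesenchyme-like cells, against 7.99 and 7.81 in epiblast-like cells (adjusted p = 0.471). HK1 thus made up 86% and 84.1% of the pair's RPM in mesenchyme-like cells, against 58.9% and 40.8% in epiblast-like cells of E13 and E14.

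These mesenchyme-like cells expressed all 8 mesenchyme markers above 10 RPM on both days, with summed means of 7884 and 25329 RPM, against 219 and 279 RPM in epiblast-like cells. Markers of hypoblast and endoderm were also raised in them, 5 of 10 above 10 RPM and 2377 and 4285 RPM in sum, against 23.6 and 35.1 RPM in epiblast-like cells, while HNF4A and APOA1 were near 0. The part of those genes in the enzyme differences was not tested. Within the 2 day-and-code sets that hold both classes, both from E13, HK2 was lower by log2 -3.64 and -2.16.

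The other classes lay between these extremes. Trophectoderm-like cells had HK1 at 7.03, 7.14 and 7.28 from E07 to E09, inside the epiblast-like range (adjusted p = 0.403), and HK2 at 8.39, 6.78 and 7.86, also overlapping (adjusted p = 0.944). At E06, trophectoderm-like cells had HK2 at 8.90 and unnamed cells at 8.51, and HK2 made up 71.6% and 70.4% of the pair's RPM. At E14 trophectoderm-like cells, a single day with no test, had HK1 at 8.50, the highest level among the 25 class and day means, and HK1 was 74.4% of the pair. Their trophectoderm markers stood at 3945 RPM in sum with 8 of 9 above 10 RPM, and CDX2 was near 0.

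In the epiblast-like cells themselves HK1 stood at 7.99 and 7.81 at E13 and E14 but at 6.23 and 6.24 at E16 and E17, so the later days as a group did not differ from E07 to E09 (difference -0.44 ± 0.25, adjusted p = 0.175, limma). Gastrulating-like cells had HK1 at 7.12, 6.61, 6.13 and 6.39 from E13 to E17, below the epiblast-like levels at E13 and E14 and near them at E16 and E17.

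Monkey ESC had HK2 levels of 5.63 in CMK6 without feeders, 6.03 in CMK6 on feeders and 6.36 in CMK9 on feeders, against 7.43, 8.18, 7.49 and 6.42 in epiblast-like cells of E13, E14, E16 and E17. All 3 cultures lay below all 4 days, with E17 just above CMK9. The difference of -1.37 ± 0.45 (2.59-fold lower, adjusted p = 0.0467, limma) was a narrow call. It was lost when E13 (adjusted p = 0.0547), E14 (0.152) or E16 (0.17) was left out, and likewise without CMK6 off feeders (0.133), CMK6 on feeders (0.0988) or CMK9 (0.07), and with edgeR (0.109). HK1 was 74.6%, 64.7% and 56.7% of the pair in the cultures, in the order named. CMK6 and CMK9 on feeders came only from title code MS05, which held no embryo cells, and CMK6 without feeders only from MS11. Code and culture can thus not be told apart in the ESC comparisons of HK2, PKM and LDHA. CMK6 entered both with and without feeders. Later epiblast-like cells shared only MS11, at E17, where HK2 was at 4.79, PKM at 9.27 and LDHA at 3.01. CMK6 without feeders had 5.63, 8.51 and 1.32.

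**Figure D3:**
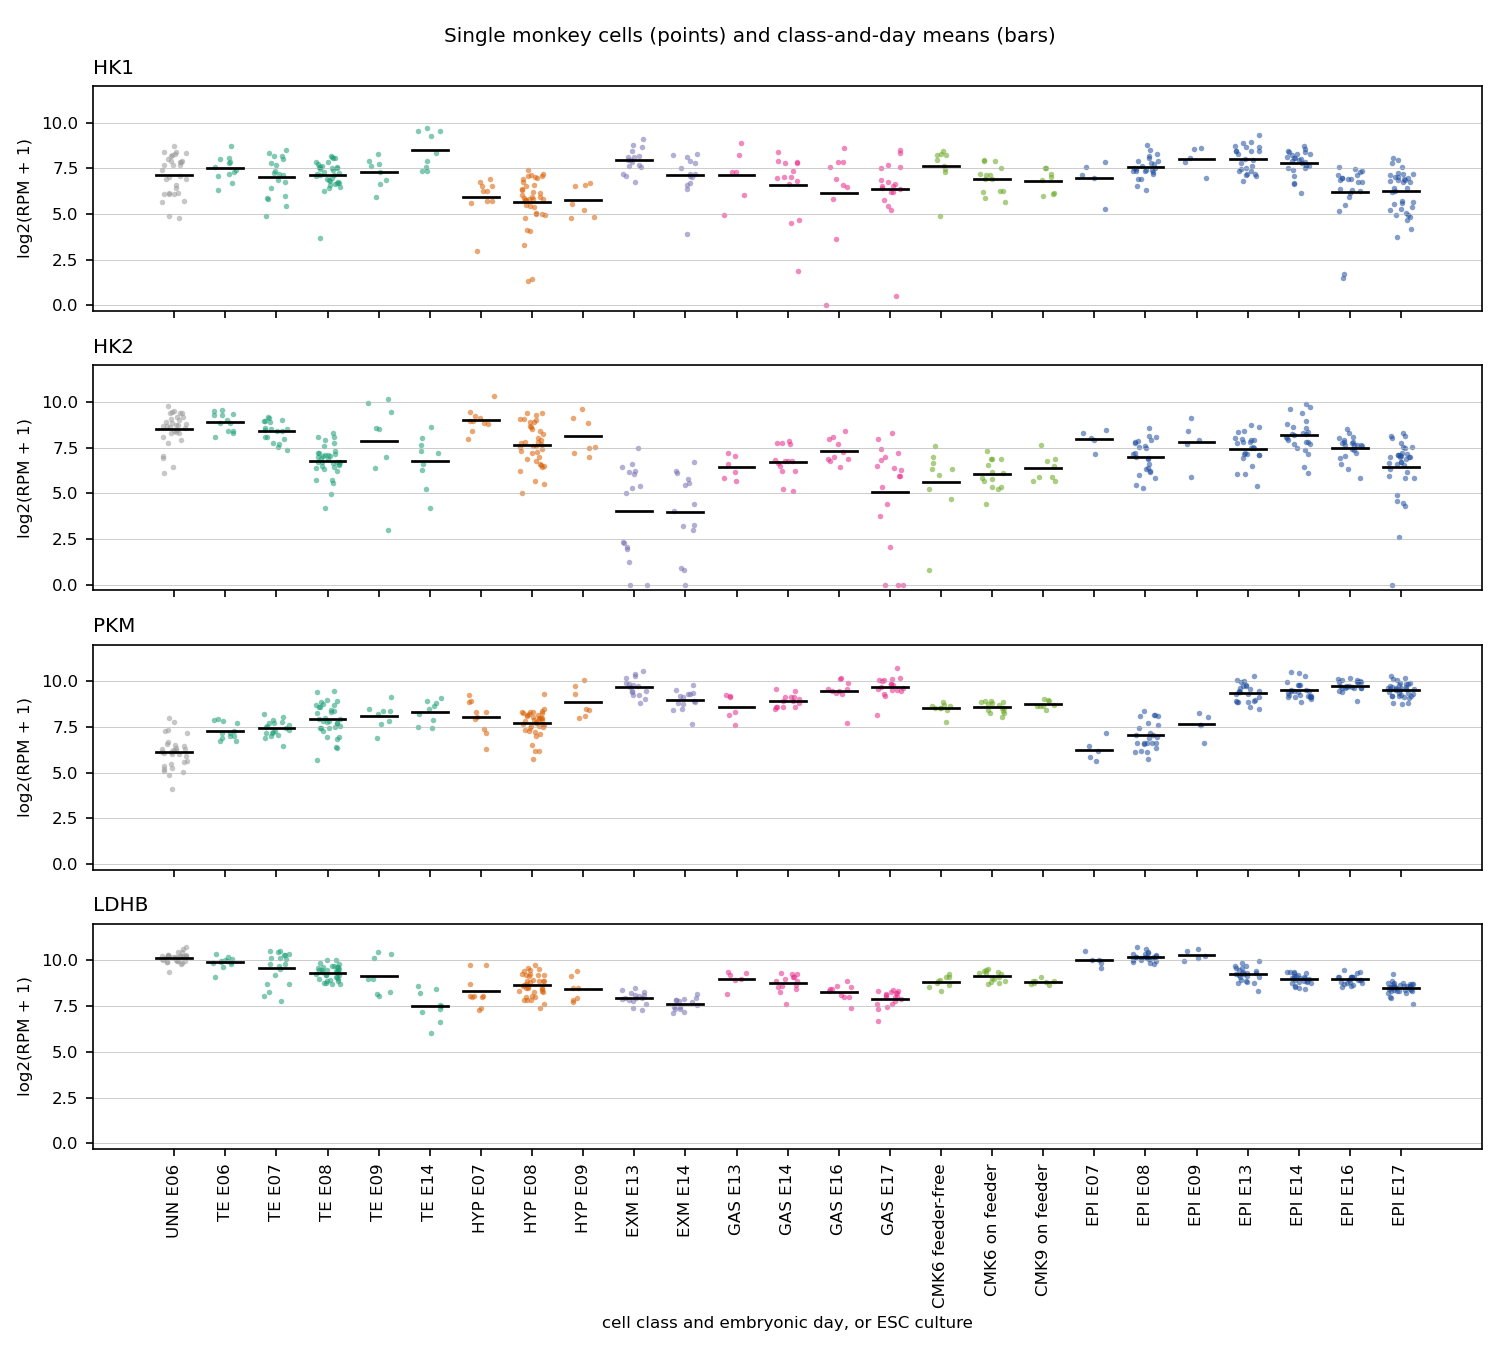
Levels, log2(RPM + 1), of single monkey cells (points) with the mean of each class and day or culture (bars). HK2 spreads down to 0 in the extraembryonic-mesenchyme-like cells, whose means are 4.04 and 3.96.

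GPI, which turns glucose 6-phosphate into fructose 6-phosphate, stayed between 6.33 and 7.69 over all monkey classes and cultures. Its level was 6.33, 6.39 and 6.83 in hypoblast-like cells at E07 to E09, against 7.42, 7.36 and 7.08 in epiblast-like cells, with no overlap. The difference of -0.77 ± 0.28 passed narrowly (adjusted p = 0.0448, limma) and was lost on leaving out epiblast-like E07 (adjusted p = 0.127), E08 (0.111) or E09 (0.0542), or hypoblast-like E07 (0.135) or E08 (0.128). In the other 5 comparisons GPI did not pass.

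PFKP, one of 3 subunit isoforms of the enzyme that commits sugar to glycolysis, was a low row with a marked time course. In epiblast-like cells its level was 2.29, 2.63 and 1.20 at E07 to E09, then 5.44, 5.06, 4.20 and 1.85 at E13, E14, E16 and E17. The peak was at E13 and E14, where means were 60.8 and 55.2 RPM, and E17, with 9.47 RPM and 15 of 35 cells at 0, lay within the early range. The later days as a group were 4.27-fold higher (adjusted p = 0.004, limma), a figure that pools 3 high days with 1 low one. That p-value leaves out the gap between E13 and E14, with a mean level of 5.25, and E16 and E17, with 3.02. At E17 all 3 title codes with at least 3 cells were low, at 1.57, 1.18 and 2.91. Gastrulating-like cells had 2.78, 3.36, 3.56 and 1.42 from E13 to E17, below the epiblast-like level on each day, and E17 was again the lowest, with 11 of 18 cells at 0. At E16 and E17 their difference from epiblast-like cells, -0.53 ± 0.70, did not pass (adjusted p = 0.815, limma). It was positive in 2 day-and-code sets and negative in 2.

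In mesenchyme-like cells PFKP stood at 2.21 and 2.06 at E13 and E14, against 5.44 and 5.06 in epiblast-like cells. The days did not overlap, and the log2 difference was -3.12 ± 0.70 (8.67-fold lower, adjusted p = 0.00181, limma). On summed reads the differences were -2.0 with edgeR (adjusted p = 0.167) and -1.99 with DESeq2 (adjusted p = 0.0919), and with the log2 of the mean RPM it was -2.52 (adjusted p = 0.0228, limma). The ESC cultures, at 3.25, 4.24 and 3.89, overlapped the 4 later epiblast-like days (adjusted p = 0.74).

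ALDOA, the muscle-type and most widespread aldolase, was present everywhere, between 6.56 and 7.93. In trophectoderm-like cells it stood at 7.53, 7.93 and 7.85 at E07 to E09, against 6.99, 6.85 and 7.15 in epiblast-like cells, without overlap. It was 1.71-fold higher (log2 difference 0.77 ± 0.21, adjusted p = 0.0102, limma), and the call was lost without trophectoderm-like E08 (0.69, adjusted p = 0.0556). In later against earlier epiblast-like cells ALDOA rose by 0.57 ± 0.20 (adjusted p = 0.0279), which was lost without E07 (0.0658), E08 (0.104), E13 (0.0723) or E16 (0.122).

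ALDOC, the brain-type aldolase, was the variable one of the pair. Its epiblast-like levels were 1.47, 2.57 and 1.80 at E07 to E09, and 3.16, 4.33, 5.12 and 4.54 at E13 to E17. The later days were all above the earlier ones and 5.06-fold higher (adjusted p = 0.000791, limma). At E13 the title codes differed, with 4.10 in 13 cells of MS10 and 1.99 in 10 cells of MS61, below the level at E08. Cells of MS61 were at 4.27 at E14 and 3.91 at E17. The 3 ESC cultures had 5.13, 4.84 and 3.68, overlapping the later days, with the first just above their highest level of 5.12 (adjusted p = 0.787, limma). ALDOC made up 17.6% and 19.9% of ALDOA plus ALDOC in epiblast-like cells at E16 and E17, 21.7%, 17.4% and 8.41% in CMK6 without feeders, CMK6 on feeders and CMK9, and 5.6% to 6.88% in epiblast-like cells at E07 to E09.

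Outside the epiblast, ALDOC stayed low in the mesenchyme-like cells, at 1.59 and 1.07 at E13 and E14, against 3.16 and 4.33 in epiblast-like cells. The difference was -2.41 ± 0.64 (5.33-fold lower, adjusted p = 0.00715, limma). It was lost without epiblast-like E14 (-1.83, adjusted p = 0.111) or mesenchyme-like E14 (-2.15, adjusted p = 0.067), and also with edgeR (adjusted p = 0.141) and DESeq2 (adjusted p = 0.0832). Within the day-and-code sets it was lower in both, by -2.84 and -0.28. Trophectoderm-like cells at E08 had the lowest ALDOC level, 0.47, beside the highest ALDOA level, 7.93, and ALDOC was 0.526% of the pair's RPM there. The log2 ratio of ALDOA over ALDOC averaged 6.72 in trophectoderm-like and 5.05 in epiblast-like cells, without overlap (exact permutation p = 0.1, the smallest possible).

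TPI1 interconverts the 2 triose phosphates. The unnamed E06 cells had the lowest level, 4.62 (58.2 RPM), and the highest was 9.57 in epiblast-like cells at E16. Gastrulating-like cells had 7.76, 8.40, 9.43 and 9.15 from E13 to E17, and trophectoderm-like cells had 6.32, 6.57, 8.06 and 7.98 at E06 to E09 and 9.10 at E14. In later against earlier epiblast-like cells the means were 8.97 ± 0.48 and 6.91 ± 0.45 (SD over 4 and 3 days), a difference of 2.06 ± 0.32 that passed in all 17 alternatives.

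Hypoblast-like cells had TPI1 at 7.40, 7.78 and 8.41, against 6.42, 7.05 and 7.28 in epiblast-like cells of E07 to E09. The hypoblast-like days were all above the epiblast-like ones. The difference of 0.95 ± 0.34 (1.93-fold higher, adjusted p = 0.0441, limma) was lost without epiblast-like E07 (0.70, adjusted p = 0.202) or E08 (0.0685), and without hypoblast-like E08 (0.0803) or E09 (0.68, adjusted p = 0.23). With edgeR its adjusted p was 0.0529.

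PKM, which makes pyruvate in the last step, had levels of 6.25, 7.03 and 7.63 in epiblast-like cells at E07 to E09 and of 9.36, 9.49, 9.76 and 9.52 at E13 to E17, from 81 RPM at E07 to 879 RPM at E16. The 2 sets of days did not overlap, and PKM was 5.89-fold higher later (2.56 ± 0.28, adjusted p = 3.52e-07, limma), past the threshold in all 17 alternatives. The row that the table names PKM was far lower, at 0.53 to 1.71 at E07 to E09 and 2.61 to 6.31 at E13 to E17. It also was more uneven: at E14 its level was 5.95, 5.12 and 2.89 in cells of 3 title codes, where PKM itself had 9.40, 10.30 and 9.28. Over the 25 class and day means the 2 rows had r = 0.66, while PKM and TPI1 had r = 0.90.

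PKM was also higher in both early extraembryonic lineages. Hypoblast-like cells had 8.04, 7.70 and 8.87 at E07 to E09, all above the epiblast-like 6.25, 7.03 and 7.63. The difference was 1.23 ± 0.30 (2.35-fold, adjusted p = 0.00403, limma), positive in 3 of 3 day-and-code sets. Trophectoderm-like cells had 7.42, 7.90 and 8.12, overlapping the epiblast-like days (0.84 ± 0.30, adjusted p = 0.0468). This last call was lost without epiblast-like E07 (0.48, adjusted p = 0.3) or E08 (0.0821) and without trophectoderm-like E08 (0.128) or E09 (0.187).

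In the mesenchyme-like cells PKM was at 9.69 and 8.96, against 9.36 and 9.49 in epiblast-like cells, and did not differ by the test (adjusted p = 0.886). HK2, PFKP and ALDOC were lower in these cells while TPI1 (adjusted p = 0.777) and PKM did not pass. At E14 the mesenchyme-like and epiblast-like cells share no title code. Within the 2 day-and-code sets that hold both, from E13, PKM was higher in mesenchyme-like cells by 0.64 and 0.63, and TPI1 by 0.40 and 0.33. In the ESC cultures PKM was at 8.51, 8.58 and 8.74, below all 4 later epiblast-like days, with a difference of -0.92 ± 0.28 (1.89-fold lower, adjusted p = 0.0345, limma). That call was lost in all 7 fits that left out 1 day or culture, with adjusted p of 0.0582 to 0.0979, and with edgeR (0.0822), with differences that stayed between -0.99 and -0.86 over all alternatives. The row the table names PKM ran the other way in the cultures, at 5.36, 5.40 and 5.63, against 2.88, 4.35, 6.31 and 2.61 in epiblast-like cells of E13 to E17, and did not pass (adjusted p = 0.234); without epiblast-like E16 it did (2.35, adjusted p = 0.0472).

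LDHB, the heart-type subunit, had its highest levels in epiblast-like cells at E08 and E09 and was lower in each extraembryonic lineage tested. In early epiblast-like cells it stood at 10.00, 10.19 and 10.30, or 1042, 1178 and 1275 RPM, and in the unnamed E06 cells at 10.15. Hypoblast-like cells had 8.30, 8.66 and 8.43, or 374, 437 and 376 RPM. No hypoblast-like day came near an epiblast-like one, and LDHB was 3.24-fold lower (-1.70 ± 0.18, adjusted p = 3.54e-07, limma), past the threshold in all 17 alternatives.

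Trophectoderm-like cells had LDHB at 9.90 at E06, 9.59, 9.32 and 9.17 at E07 to E09, and 7.50 at E14. All 3 days from E07 to E09 lay below the epiblast-like days, with a 1.74-fold lower mean (-0.80 ± 0.18, adjusted p = 0.00247, limma). Within the day-and-code sets LDHB was lower in 3 of 3 in trophectoderm-like cells, by log2 -1.13 to -0.63, and in 3 of 3 in hypoblast-like cells, by -1.87 to -1.56.

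Mesenchyme-like cells had LDHB at 7.95 and 7.61, against 9.25 and 8.97 in epiblast-like cells of E13 and E14, or 253 and 199 RPM in mesenchyme-like cells against 627 and 510 RPM in epiblast-like cells. The single-cell ranges did not meet at E14, with 139 to 283 RPM in mesenchyme-like cells and 346 to 666 RPM in epiblast-like cells. LDHB was 2.51-fold lower (-1.33 ± 0.22, adjusted p = 9.99e-05, limma), in all 15 alternatives.

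In gastrulating-like cells LDHB was at 8.27 and 7.91 at E16 and E17, against 8.96 and 8.50 in epiblast-like cells. The days did not overlap and all 4 day-and-code sets were lower, by -0.75 to -0.46. The difference of -0.64 ± 0.22 did not pass (adjusted p = 0.111, limma), while with the day as a block it did (adjusted p = 0.0109), as with DESeq2 on summed reads (adjusted p = 0.0477). The days differ from each other here: gastrulating-like E16, at 8.27, lies near epiblast-like E17, at 8.50. Hypoblast and endoderm markers summed to 1657 and 1676 RPM in gastrulating-like cells at E16 and E17, against 276 and 153 RPM in epiblast-like cells, and trophectoderm markers to 1424 and 1115 RPM in gastrulating-like cells, against 252 and 91 RPM in epiblast-like cells. Their part in the LDHB difference was not tested.

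LDHB also declined within the epiblast-like class, with 9.25, 8.97, 8.96 and 8.50 at E13 to E17 against 10.00 or more earlier. The later days averaged 8.92 ± 0.31 and the earlier ones 10.16 ± 0.15 (SD over 4 and 3 days), 2.36-fold lower (-1.24 ± 0.17, adjusted p = 7.93e-06, limma), past the threshold in all 17 alternatives. LDHB was thus lower on the later days while PKM, TPI1, PFKP, ALDOA and ALDOC were higher. The ESC cultures, at 8.84, 9.13 and 8.83, were level with the later epiblast-like days (difference 0.02 ± 0.17, adjusted p = 0.97).

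The epiblast-like cells of E07 to E09, of E13 and E14, and of E16 and E17 form a cluster each. The early epiblast-like cells came from title codes that hardly recur among the later ones, so code and stage cannot be told apart here. Trophectoderm markers summed to 1057 to 1192 RPM in the early epiblast-like cells, against 45.1 to 252 RPM in the later ones, and epiblast-like E16 had mesenchyme markers at 1120 RPM, against 147 to 279 RPM on the other later days. Their part in the enzyme levels was not tested.

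The row named LDHA moved in the opposite direction in the early lineages. It was at 3.91, 5.32 and 4.63 in trophectoderm-like cells and 4.14, 4.85 and 4.75 in hypoblast-like cells at E07 to E09, against 1.56, 3.62 and 3.50 in epiblast-like cells. Neither lineage overlapped the epiblast-like days, but the low epiblast-like E07, 5 cells with 2.62 RPM on average, widened the gap. The differences were 1.73 ± 0.56 in trophectoderm-like cells (3.31-fold, adjusted p = 0.0291, limma) and 1.69 ± 0.56 in hypoblast-like cells (3.23-fold, adjusted p = 0.0315).

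Without epiblast-like E07 these LDHA differences were 1.06 (adjusted p = 0.207) and 1.02 (adjusted p = 0.217). Leaving out trophectoderm-like E08 (1.38, adjusted p = 0.152) or E09 (1.72, adjusted p = 0.0727) ended the first call, and leaving out hypoblast-like E08 (adjusted p = 0.101) or E09 (adjusted p = 0.0947) the second. edgeR gave adjusted p of 0.0635 and 0.0956. In 3 of 3 day-and-code sets LDHA was higher in each lineage, by 1.13 to 3.02 in trophectoderm-like and 1.17 to 3.3 in hypoblast-like cells.

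In monkey ESC the LDHA row was at 1.32, 1.31 and 2.32 in CMK6 without feeders, CMK6 on feeders and CMK9, against 2.95, 3.88, 4.68 and 3.32 in epiblast-like cells of E13 to E17. In mean RPM the cultures had 1.92, 1.67 and 5.33, with every culture below every later day and the CMK6 cultures below all other monkey classes. LDHA was 4.15-fold lower (-2.05 ± 0.53, adjusted p = 0.0133, limma), and the call was lost without E14 (0.0605), E16 (0.0689) or CMK6 on feeders (0.0565). Between the later and earlier epiblast-like days LDHA did not pass (0.81, adjusted p = 0.235).

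The balance of the LDH pair is shown by the log2 ratio of LDHA over LDHB, whose absolute value and sign carry the row uncertainty given above. It averaged -4.74 in trophectoderm-like, -3.88 in hypoblast-like and -7.27 in epiblast-like cells of E07 to E09. It was -3.88 in mesenchyme-like cells and -5.70 in epiblast-like cells of E13 and E14, and -7.28 in ESC cultures and -5.22 in epiblast-like cells of E13 to E17. The groups did not overlap in any of these, nor between later and earlier epiblast-like days (-5.22 and -7.27). Exact two-sided permutation p-values were 0.1 for the early lineages, 0.333 for the mesenchyme-like cells and 0.0571 for the last 2, in each case the smallest the number of days allows. None of the 18 paralog tests passed after adjustment, the lowest adjusted p being 0.257. Ratios differed between days within a class too, from -7.0 in gastrulating-like cells at E13 to -3.38 at E16, but different clusters hold these days: 4 of 6 gastrulating-like cells at E13 and 13 of 14 at E14 were in a cluster led by SPP1 and T with 4 of 8 epiblast markers raised, and all cells of E16 and E17 in one led by LHX1 and EOMES with 5 of 10 hypoblast and endoderm markers raised.

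**Figure D4:**
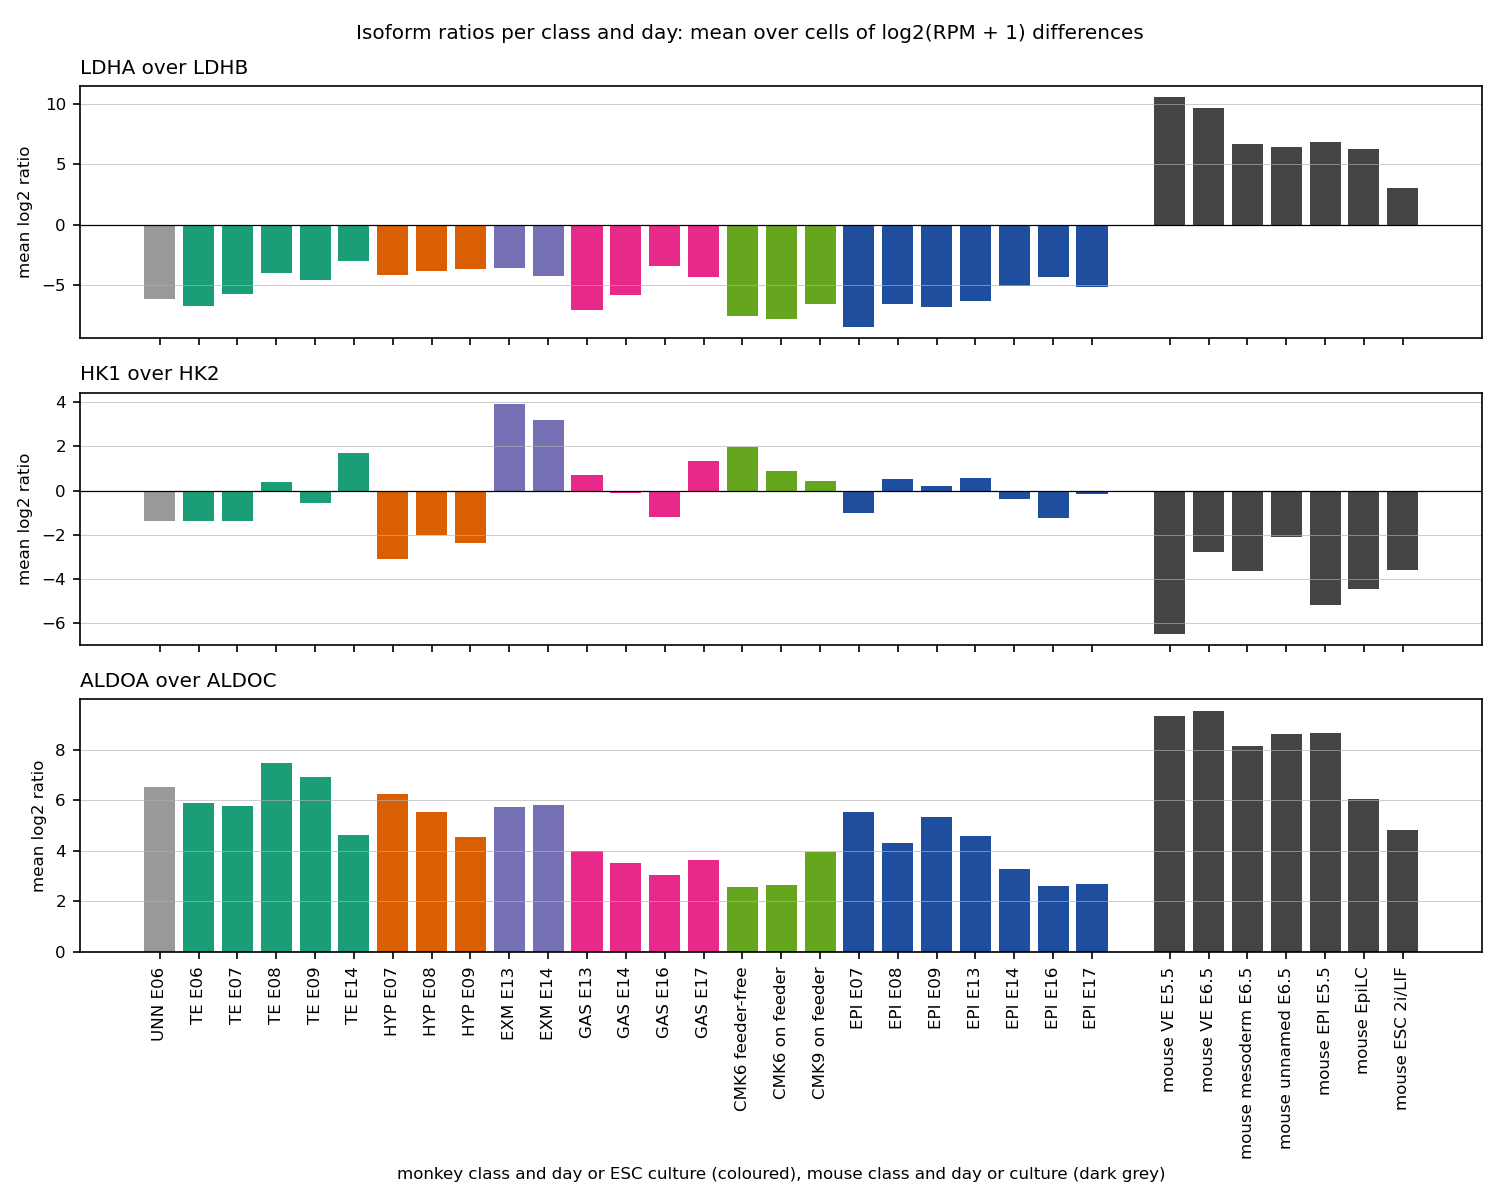
Mean over cells of the log2(RPM + 1) difference between paralogs, for LDHA over LDHB, HK1 over HK2 and ALDOA over ALDOC, in monkey (coloured) and mouse (dark grey) classes and cultures. The LDH ratio is below 0 in all monkey columns and above 0 in all mouse columns. The monkey sign rests on a row named LDHA that RefSeq names otherwise. Its share of all LDHA reads was not tested, so the sign does not rank the subunits or the species. The HK ratio is above 3 in the mesenchyme-like cells and below -1.9 in the hypoblast-like cells.

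Lists of related genes set the members beside others of the pathway. The 16 tested glycolytic enzymes include all members except LDHA and LDHB, so these counts repeat member calls given above. Trophectoderm-like cells had 4 higher, including ALDOA and PKM, and 3 lower (median difference -0.22), against 9.78% and 12.6% of all tested genes. Hypoblast-like cells had 3 higher, including TPI1 and PKM, and 5 lower, including HK1 and GPI (-0.57), against 10.9% and 13.1%. Mesenchyme-like cells had 1 higher and 6 lower, including HK2, PFKP and ALDOC (-0.39), against 11.8% and 14.5%. Gastrulating-like cells had 1 lower, not a member (-0.08), against 3.08%. Later against earlier epiblast-like cells had 11 higher, including PFKP, ALDOA, ALDOC, TPI1 and PKM (0.86), against 14%. ESC cultures had 3 lower, including HK2 and PKM (-0.20), against 2.31%. The medians of all genes are those given above. ENO1, the widespread enolase, was at 10.49 in hypoblast-like cells (adjusted p = 3.4e-05, limma) and 10.00 in trophectoderm-like cells (adjusted p = 0.00291), against 9.09 in epiblast-like cells. ENO3, the muscle enolase, was at 1.92 in mesenchyme-like and 7.49 in epiblast-like cells (adjusted p = 8.48e-08), at 4.73 in gastrulating-like and 6.92 in epiblast-like cells (adjusted p = 0.02), and at 0.69 in trophectoderm-like and 3.07 in epiblast-like cells (adjusted p = 0.000408).

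GAPDH, which oxidizes the triose phosphate, was at 10.13 in mesenchyme-like and 10.95 in epiblast-like cells (adjusted p = 0.0133, limma), and at 9.71 in hypoblast-like and 10.32 in epiblast-like cells (adjusted p = 0.0255). It did not pass in trophectoderm-like cells, at 9.95, against the same 10.32 in epiblast-like cells (adjusted p = 0.196). PGK1, the first step that yields ATP, was at 9.82 in mesenchyme-like and 9.62 in epiblast-like cells (adjusted p = 0.639), and at 9.35 in ESC cultures and 9.87 in later epiblast-like cells (adjusted p = 0.0843).

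Upstream of the hexokinases, of 7 tested hexose and lactate transporters 2 were higher in hypoblast-like cells (median difference of the 7, 0.72), 3 higher and 1 lower in trophectoderm-like cells (0.86), 1 higher and 1 lower in later epiblast-like cells (0.10), and 1 higher each in mesenchyme-like cells (-0.78), gastrulating-like cells (-0.00) and ESC cultures (0.74). SLC2A1, the main glucose transporter GLUT1, was at 10.55 in hypoblast-like and 7.0 in epiblast-like cells (3.54 ± 0.33, adjusted p = 3.48e-08, limma). SLC16A3, a lactate exporter, was at 4.79 in gastrulating-like and 1.84 in epiblast-like cells of E16 and E17 (2.95 ± 0.78, adjusted p = 0.028).

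Among 11 tested regulators of glycolytic flux, 2 were higher and 3 lower in trophectoderm-like cells (median difference -0.06), 1 higher and 2 lower in hypoblast-like cells (-0.40), 1 higher and 3 lower in mesenchyme-like cells (-0.61), 3 lower in later epiblast-like cells (-0.66), and 1 higher and 1 lower in ESC cultures (0.15). Among 8 genes of gluconeogenesis and glycogen, 2 were lower in trophectoderm-like cells (0.08), 2 higher and 2 lower in hypoblast-like cells (-0.20), 1 higher in mesenchyme-like cells (0.09), 1 higher and 1 lower in later epiblast-like cells (0.48), and 2 higher in ESC cultures (0.03). Among 7 genes of the pentose phosphate pathway, 2 were higher in trophectoderm-like cells (0.44), 1 lower in mesenchyme-like cells (-0.21), 1 lower in later epiblast-like cells (0.01) and 1 higher in ESC cultures (0.29). Set beside the shares of all genes called, 9.78% higher and 12.6% lower in trophectoderm-like cells, 10.9% and 13.1% in hypoblast-like cells, 11.8% and 14.5% in mesenchyme-like cells, 14% and 23% in later epiblast-like cells and 9.65% and 2.31% in ESC cultures, counts of 1 to 3 in lists this short are not a result about the lists.

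PYGL, liver glycogen phosphorylase, was at 0.71 in trophectoderm-like cells (adjusted p = 0.00039, limma) and 0.58 in hypoblast-like cells (adjusted p = 0.000232), against 3.50 in epiblast-like cells. PDK3, a kinase that restrains pyruvate dehydrogenase, was at 1.21 in trophectoderm-like and 3.77 in epiblast-like cells (adjusted p = 0.00463). MPC2, a subunit of the mitochondrial pyruvate carrier, was at 2.36 in mesenchyme-like and 6.73 in epiblast-like cells (adjusted p = 1.5e-05). PCK2, the mitochondrial phosphoenolpyruvate carboxykinase, was at 4.78 in ESC cultures and 2.38 in later epiblast-like cells (adjusted p = 0.00223, limma). PDP1, which reactivates pyruvate dehydrogenase, was at 5.80 in ESC cultures and 3.99 in later epiblast-like cells (adjusted p = 0.0197). RPIA, of the pentose phosphate pathway, was at 4.47 in ESC cultures and 2.71 in later epiblast-like cells (adjusted p = 0.00857). LDHC, the testis subunit of LDH, was at 0.33 in ESC cultures and 1.80 in later epiblast-like cells (adjusted p = 0.022).

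A list of 17 tested hypoxia-related genes held known targets together with HIF1A, EPAS1, ARNT and MYC. In hypoblast-like cells 6 were higher and 4 lower, MYC among the latter, against 10.9% and 13.1% of all tested genes. In mesenchyme-like cells 5 were higher and 3 lower, against 11.8% and 14.5%. In trophectoderm-like cells 2 were higher and 1, MYC, lower, against 9.78% and 12.6%. In ESC cultures 2 were lower, against 2.31%. In gastrulating-like cells none passed limma's threshold (1 at an unadjusted p under 0.05, none with edgeR, 2 with DESeq2). In later against earlier epiblast-like cells 4 were higher, including HIF1A, and 3 lower, including ARNT, against 14% and 23%. Calls went both ways in hypoblast-like, mesenchyme-like and later epiblast-like cells, also without HIF1A, EPAS1, ARNT and MYC. ADM, the peptide adrenomedullin, was at 4.69 in trophectoderm-like and 3.77 in hypoblast-like cells, against 0.71 in epiblast-like cells (adjusted p = 2.48e-05 and 0.00047, limma). MYC was at 0.76 in hypoblast-like and 4.73 in epiblast-like cells (adjusted p = 3.74e-07). CA9, a carbonic anhydrase, was at 0.88 in mesenchyme-like and 4.09 in epiblast-like cells (adjusted p = 2.03e-05), and NDRG1 at 3.96 in mesenchyme-like and 0.82 in epiblast-like cells (adjusted p = 1.78e-05). Between epiblast-like days, NDRG1 was at 1.21 later and 6.68 earlier (adjusted p = 1.25e-10), EGLN3, an oxygen-sensing hydroxylase, at 1.59 later and 4.52 earlier (adjusted p = 5e-05), and CA9 the other way at 3.94 later and 1.25 earlier (adjusted p = 5.94e-06).

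Genes whose class and day means were most like those of single members, over the 25 means and as a description, were as follows. LDHA was followed by the unnamed row LOC102127771 (r = 0.97), LDHC (0.78) and EIF4G2 (0.77). LDHB was followed by the 3 unnamed rows described above (0.98 to 0.99). HK2 was followed by C1H1orf172 (0.86), CTSV (0.84) and CRB3 (0.84), and ALDOC by RGMA (0.93), CD200 (0.92) and CBLC (0.92). Between paralogs r was -0.24 for LDHA and LDHB, -0.16 for HK1 and HK2 and 0.37 for ALDOA and ALDOC.

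In the mouse no group had more than 1 day or culture with epiblast-like cells, so values are given without a test. All E5.5 cells came from title code MS11, all E6.5 cells from MS77 and all cells of the cultures from MS61. Code can thus not be told apart from day, or from culture against embryo. The classes were visceral-endoderm-like at E5.5 (9 cells) and E6.5 (5), mesoderm-and-streak-like at E6.5 (12), unnamed at E6.5 (7) and epiblast-like at E5.5 (16). All 11 visceral endoderm markers were above 10 RPM in visceral-endoderm-like cells on both days, and they summed to 6.23 RPM in epiblast-like cells. Ldha (chromosome 7, 46841475 to 46855627, plus strand, GRCm38) had means of 2426 and 2028 RPM in visceral-endoderm-like cells at E5.5 and E6.5, 2655 RPM in mesoderm-and-streak-like cells and 2412 RPM in epiblast-like cells, so these classes had nearly the same Ldha level.

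Ldhb (chromosome 6, 142490249 to 142507957, minus strand) did differ between mouse lineages. It was at 0.72 and 1.28 in visceral-endoderm-like cells at E5.5 and E6.5, against 4.40 in epiblast-like cells. At E5.5 the median was 0 RPM in visceral-endoderm-like cells, with 5 of 9 at 0 and a highest value of 15.3 RPM, against a median of 20.6 RPM and a range of 11.1 to 42.6 RPM in epiblast-like cells. The cell ranges overlapped only at their ends. The log2 ratio of Ldha over Ldhb was 10.51 and 9.68 in visceral-endoderm-like cells and 6.82 in epiblast-like cells. In the monkey the hypoblast-like class, the lineage that gives rise to the visceral endoderm, also had the lower LDHB and the higher ratio. This was not particular to that class. Lower LDHB and a higher ratio were also found in trophectoderm-like cells (ratio -4.74, against -7.27 in epiblast-like cells) and mesenchyme-like cells (-3.88, against -5.70).

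The mouse hexokinases were Hk2 (chromosome 6, 82725025 to 82774454, minus strand) and Hk1 (chromosome 10, 62268855 to 62379908, minus strand). Hk1 gave 0.856% of the pair's RPM in visceral-endoderm-like and 3.21% in epiblast-like cells at E5.5, and 26.4% in visceral-endoderm-like cells at E6.5, where 1 of the 5 cells, with 76.2 RPM of Hk1 against a median of 4.08 RPM, set most of the mean of 17.7 RPM. Hk2 stood at 7.21 in visceral-endoderm-like and 7.18 in epiblast-like cells at E5.5, and at 5.17 in visceral-endoderm-like and 5.78 in mesoderm-and-streak-like cells at E6.5. Single cells of the E6.5 classes were spread more widely, with SDs of 1.5 and 1.90 against 0.64 in the epiblast-like cells.

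Between mouse cultures the LDH pair moved in opposite directions. Ldha was at 10.96 in EpiLC and 9.22 in 2i ESC, with 505, 1793 and 5437 RPM as the lowest, median and highest EpiLC, against 185, 660 and 1324 RPM in 2i ESC. Ldhb was at 4.74 in EpiLC and 6.20 in 2i ESC, with 11.1, 23.9 and 108 RPM in EpiLC, against 23.8, 93.7 and 151 RPM in 2i ESC. Cells of both cultures overlapped for both genes. The log2 ratio of Ldha over Ldhb was 6.23 in EpiLC, near the 6.82 of E5.5 epiblast-like cells, and 3.02 in 2i ESC.

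Other mouse rows differed less evenly between the cultures. Tpi1 was at 7.87 in EpiLC and 6.69 in 2i ESC, and Pfkp at 6.31 in EpiLC and 7.72 in 2i ESC. Hk1 was at 1.74 in EpiLC and 3.28 in 2i ESC, low in both. Aldoc, at 3.92 in EpiLC and 4.71 in 2i ESC, was higher in both cultures than in any mouse embryo class, where it was between 0.42 and 1.91. Title code separates the cultures from the embryo cells too. Aldoa was at 9.98 in EpiLC and 9.55 in 2i ESC, Pkm at 10.57 in EpiLC and 10.16 in 2i ESC, and Gpi1 at 8.43 in EpiLC and 8.58 in 2i ESC.

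**Figure D5:**
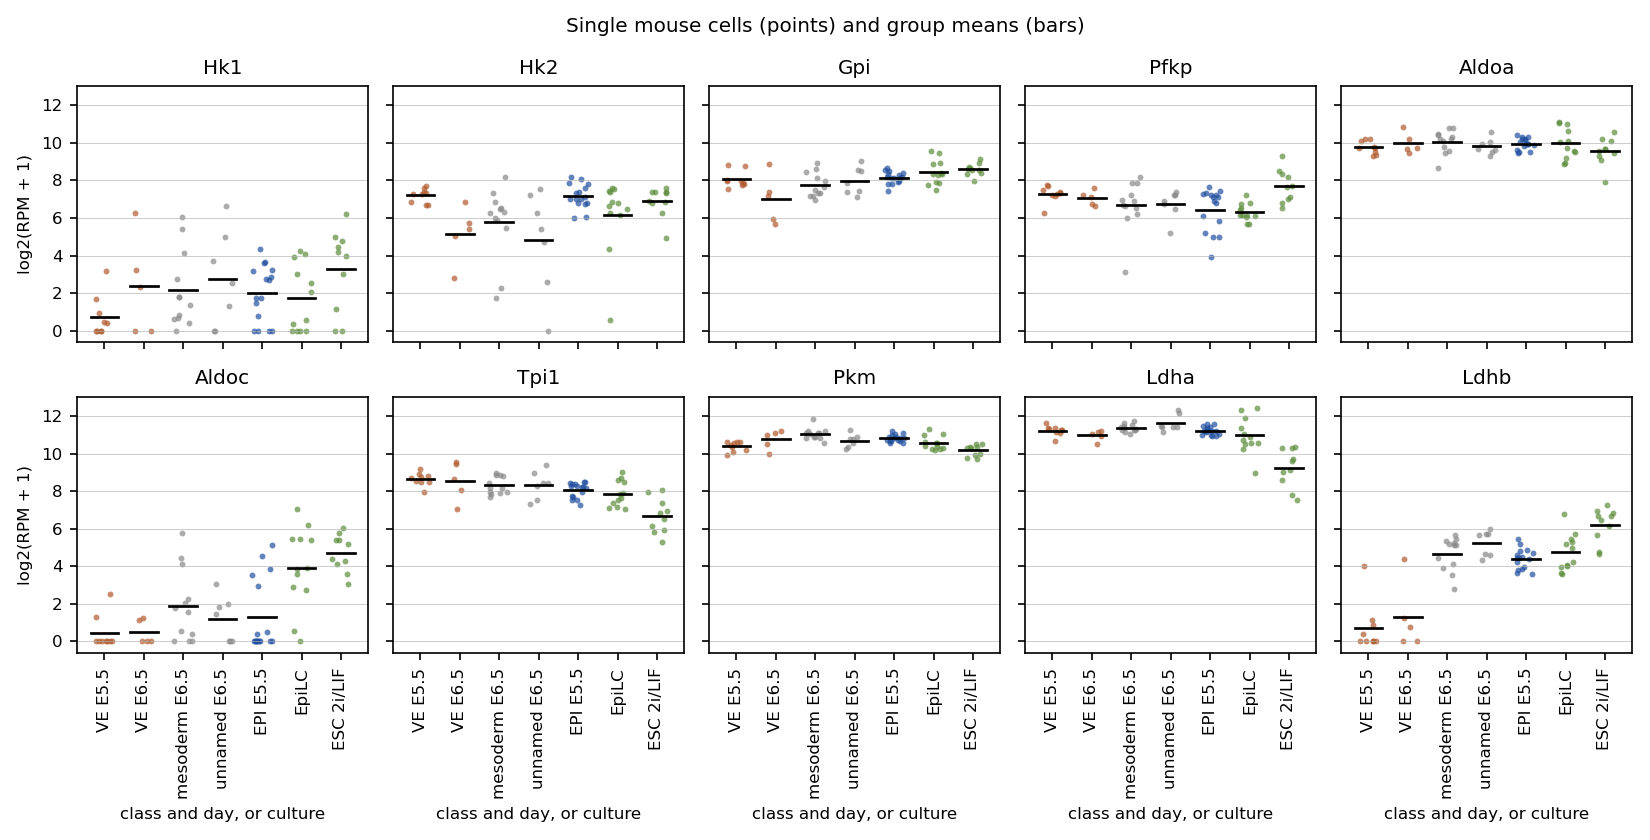
Levels, log2(RPM + 1), of single mouse cells (points) with group means (bars) for the 10 enzymes. Ldhb is near 0 in visceral-endoderm-like cells, whose means are 0.72 and 1.28, and highest in 2i ESC with a mean of 6.20.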

How the data were processed

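The authors deposited RPM per gene and cell, one table per species; the monkey table's header names build macFas5. The tools named in the submitters' processing notes are TopHat 1.4.1, Cufflinks 2.2.0 and cutadapt 1.3, and the mouse build is mm10. RPM steps gave whole reads for at least 99.719% of monkey and 99.602% of mouse values (tolerance 0.1 read), so depth was recovered. Of the monkey rows, 298 without values were left out, and 3341 of 14758 LOC rows were named from RefSeq; 37 mouse columns matched no sample here and were not used.

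Cells were clustered (scanpy 1.11.5, igraph 0.11.9, Leiden resolution 1) per species on 2000 variable genes without the metabolic lists, and clusters named from markers. No doublet caller was run. Means of log2(RPM + 1) over at least 5 cells per class and day or culture entered limma 3.58.1 (R 4.3.3), all groups sharing 1 spread, for genes with a mean of at least 2 in at least 3 of the 25; 11774 passed, all 10 members among them. The adjusted p threshold was 0.05. Fold changes come from means of log2(RPM + 1). For low genes, or genes at 0 in some cells, they can be smaller or larger than ratios of mean RPM. Paralog ratios had exact permutation tests (scipy 1.17.1) adjusted over 18. edgeR 4.0.16 and DESeq2 1.42.0 on recovered reads summed per class and day were alternatives. The limma step was tested on simulated data. The members and lists were chosen with earlier results of these data known. Besides the members, named genes are at most 4 per comparison of largest change among list genes past the threshold, GAPDH, PGK1 and ENO1, and the 3 most correlated with LDHA, LDHB, HK2 and ALDOC.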

Additional observations from a re-analysis of the deposited data

How the results depend on the processing

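Of 24 calls, counting the row the table names PKM, 7 passed in every alternative with a test: HK1 and LDHB in hypoblast-like cells, HK2 and LDHB in mesenchyme-like cells, and TPI1, PKM and LDHB in later epiblast-like cells; none of the 24 changed sign. Of 42 enzyme differences that did not pass, 26 changed sign and 6 passed under some alternative. Calls lost to a left-out day or culture are given with each gene. Settings ended 15 calls (units of at least 10 cells), 8 (no filter on low values), 7 (edgeR), 4 (pseudocount of 0.1 RPM), 2 (log2 of the mean RPM), 2 (DESeq2) and 1 (pseudocount of 10 RPM). Units of at least 10 cells left early epiblast-like cells with 1 day and the ESC with 1 culture, each then assumed to vary like the other groups.

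Counts of called genes were 2639, 2823, 3093, 594, 4361 and 1408 for trophectoderm-like, hypoblast-like, mesenchyme-like, gastrulating-like, later epiblast-like and ESC comparisons. With at least 10 cells they were 885 (trophectoderm-like), 856 (hypoblast-like), 1601 (later epiblast-like) and 148 (ESC). The day as a block gave 1273 in gastrulating-like cells and edgeR 166. For ESC, log2 of the mean RPM gave 819 and edgeR 550. Leaving out a day or culture gave 1958 to 2431, 2120 to 2450, 1937 to 2789, 277 to 547, 3520 to 3714 and 769 to 1461.

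Paralog ratios were also recomputed leaving out each day or culture, an alternative chosen after seeing the data. HK1 over HK2 then ran from -0.48 to 2.04 in gastrulating-like against epiblast-like cells, and from -0.68 to 0.09 in later against earlier epiblast-like cells. ALDOA over ALDOC ran from -0.00 to 0.85 in hypoblast-like cells and from -0.68 to 0.20 in ESC, and in gastrulating-like cells its difference was -0.02 as a log2 ratio of mean RPM, against 0.68. The cause of these changes was not tested. Clustering at resolution 1.5, or with the metabolic genes kept, gave the same monkey classes. The mouse lineage test was not run, as epiblast-like cells came from 1 day. Classes of the same days were also fitted with the day as a block: no call of an enzyme was lost, and HK2 in hypoblast-like and LDHB in gastrulating-like cells then passed, with the values given above. Beyond that, no paired analysis was possible because the labels name no embryo or animal that cells share.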

Other observations

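Other isoforms of the phosphofructokinase and hexokinase steps were chosen after their values were seen. PFKL, the liver-type phosphofructokinase subunit, had levels of 6.35, 6.68 and 6.5 in trophectoderm-like cells at E07 to E09, against 5.67, 5.54 and 4.24 in epiblast-like cells, without overlap. PFKM, the muscle-type subunit, stood the other way, at 1.85, 0.61 and 1.22 in trophectoderm-like cells, against 2.90, 2.52 and 3.58 in epiblast-like cells. In mesenchyme-like cells, where PFKP was low, PFKM was at 4.64 and 4.38, against 3.76 and 3.54 in epiblast-like cells of E13 and E14.

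HKDC1, a further hexokinase-family gene, was read in mouse visceral-endoderm-like cells and hardly at all in monkey cells. Mouse Hkdc1 was at 6.02 and 6.21 in visceral-endoderm-like cells at E5.5 and E6.5, against 0.10 in epiblast-like cells. Monkey HKDC1 did not exceed 0.47 in any class and day or culture, and it was 0.00 in hypoblast-like cells on all 3 days. Whether the monkey row covers the 3′ end of the transcript was not tested, and the stages differ. The values therefore do not show a difference between the species. SLC2A3, the glucose transporter GLUT3, was at 5.90, 6.23 and 6.11 in monkey hypoblast-like cells and 6.16, 5.18 and 5.97 in trophectoderm-like cells at E07 to E09, against 3.83, 4.16 and 4.37 in epiblast-like cells, and at 7.60 and 7.04 in trophectoderm-like and unnamed cells at E06. Mouse Slc2a3 was at 10.20 and 10.90 in visceral-endoderm-like cells at E5.5 and E6.5, against 5.20 in epiblast-like cells. In trophectoderm-like cells limma called PFKL and SLC2A3 higher and PFKM lower, and in hypoblast-like cells SLC2A3 higher, as did edgeR and DESeq2; these calls are among the list counts given above. PFKM in mesenchyme-like cells passed in none of the 3 tools, and the mouse values have no test.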
